A study of Mus musculus with 6 samples.

Results

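The 10 genes described here handle heme and iron in the cell: Hmox1, Blvrb, Fth1, Ftl1, Slc40a1, Tfrc, Slc11a1, Slc11a2, Lcn2 and Ireb2. They were chosen by name for their known roles, with earlier results of these data known. All 10 were found by symbol among the 22063 genes of the count table. RNA-seq was run on 6 mouse macrophage samples, 3 of the kind named CAR-Ms and 3 named CAR-Trem2-Ms, where CAR stands for chimeric antigen receptor, in a study on scar management. All cells were grown for 7 days in DMEM with 20 ng/mL M-CSF, a growth factor for macrophages, and received the receptor by lentivirus. The CAR-Ms carry the genotype label WT. The CAR-Trem2-Ms carry the label TERM2+ (so spelled), and their labels add flow sorting and an exposure to VD3 (1 µM, 24 h). A treatment protocol common to all samples also gives VD3, so the labels do not settle whether the CAR-Ms received it, and Trem2 status, sorting and VD3 cannot be told apart in any difference below. Neither strain nor age of the mice was named in the labels used here. Whether the replicates of a group were separate cultures is not stated either, so the p-values reflect the spread among these 6 samples alone, which may be technical.

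Heme is split by heme oxygenase into biliverdin, carbon monoxide and ferrous iron. The iron is kept in ferritin, a shell of heavy and light chains, or leaves the cell through ferroportin, while new iron enters bound to transferrin through the transferrin receptor. Macrophages are known for recycling iron from aged red cells. Many of these messages are under translational or decay control by iron-regulatory proteins, which bind a short hairpin, the iron-responsive element: in a 5′ UTR the bound protein blocks translation, and in the 3′ UTR of the transferrin receptor message it protects the RNA from decay. RNA levels were measured here and protein was not.

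Because this hairpin is the known link between the storage, export and uptake genes, it was searched in all coding transcripts of GENCODE M21 (build GRCm38, the equivalent of the mm10 build named in the submitters' processing notes). The search asked for the 6-base loop CAGTGN, with A, C or T as the last base, on 5 paired bases with G:T pairs allowed and with a C below their 5′ side, on the transcript strand alone. The elements found are shown with the loop in capitals, 27 bases each, 5′ to 3′.
Fth1, 5′ UTR: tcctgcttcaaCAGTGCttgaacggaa
Ftl1, 5′ UTR: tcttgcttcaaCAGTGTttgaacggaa
Slc40a1, 5′ UTR: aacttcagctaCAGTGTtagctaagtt
Tfrc, 3′ UTR, first: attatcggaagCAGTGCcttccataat
Tfrc, 3′ UTR, the second: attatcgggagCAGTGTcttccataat
Tfrc, 3′ UTR, the third: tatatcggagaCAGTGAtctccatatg
Tfrc, 3′ UTR, the fourth: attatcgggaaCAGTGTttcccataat

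The Fth1 element lies at chr19:9982733-9982759 on the plus strand, that of Ftl1 at chr7:45459780-45459806 on the minus strand, and that of Slc40a1 at chr1:45925466-45925492 on the minus strand. The 4 Tfrc elements lie on the plus strand of chromosome 16 at chr16:32631220-32631246, chr16:32631599-32631625, chr16:32631664-32631690 and chr16:32631711-32631737. A match was present in the 5′ UTR of 23 of 20916 genes (0.11%), 3 of them among the 10, and in the 3′ UTR of 99 of 21707 genes (0.456%), with Tfrc the one member. Tfrc was the only gene of the annotation with 3 or more matches in its 3′ UTR. UTRs differ in length between genes, so these shares describe the annotation alone. For the other 6 members, Slc11a2 among them, no match says only that this pattern was not found in the annotated UTRs. A hairpin with an unpaired base among the pairs asked for would be missed, so these members may still carry an iron-responsive element.

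Total counts per sample ran from 14204468 to 15913100 reads in the CAR-Ms and from 9804959 to 12558021 in the CAR-Trem2-Ms. The groups also differed across the whole transcriptome: with edgeR's quasi-likelihood test at a Benjamini-Hochberg adjusted p below 0.05, 40.9% of the 11402 tested genes were higher in the CAR-Trem2-Ms, 40.1% were lower, and 81.1% passed in either direction. At a change of 2-fold or more the shares were 18.7% higher and 14.3% lower, 33.0% in all, and in 81.8% of tested genes the 3 values of one group did not overlap those of the other. Reads of mitochondrial genes took 4.6 to 4.7% of the counts in the CAR-Ms and 13.38 to 13.8% in the CAR-Trem2-Ms. Levels of a gene across samples are given as CPM, the count scaled to a common library size with TMM factors. Trem2 itself stood at 78.7, 74.1 and 77.0 CPM in the CAR-Ms and at 196, 195 and 182 in the CAR-Trem2-Ms. Summed macrophage markers held 3587 to 3614 CPM in the CAR-Ms and 4142 to 4173 in the CAR-Trem2-Ms. Of the 8 tested macrophage markers 6 were higher and 2 lower. The lower ones were Csf1r and Cd68. Csf1r had a mean of 1264.2 CPM in the CAR-Ms and 862.1 in the CAR-Trem2-Ms, and Cd68 had 638.9 and 601.5. The labels give skin as the tissue, and the summed keratinocyte markers reached at most 0.13 CPM in any sample.

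Of the 10 genes, 9 had enough reads to be tested, each with 45 reads or more in every sample. Both ferritin chains, both enzymes of heme breakdown, the phagosomal metal transporter Slc11a1 and the siderophore binder Lcn2 were higher in the CAR-Trem2-Ms, and the transferrin receptor Tfrc, the transporter Slc11a2 and the sensor Ireb2 were lower. That is 6 of 9 higher and 3 of 9 lower, with a median log2 fold change of 1.38 beside a median of 0.029 over all tested genes. The genes were chosen with earlier results known, so this median only describes them. In bulk samples, more RNA per cell and a larger share of cells with the RNA cannot be told apart. In all 9 the groups did not overlap, and 9 of 9 passing stands against a background of 81.1%, so the calls alone do not set these genes apart. At 2-fold or more, 6 were higher and 1, Tfrc, was lower. The log2 fold change of Lcn2 lay at percentile 99.7 of all tested genes, that of Hmox1 at percentile 96.9 and that of Tfrc at percentile 1.2, while those of the ferritins (90.1 for Fth1 and 87.9 for Ftl1) and of Ireb2 (24.6) lay nearer the middle.

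**Figure D1:**
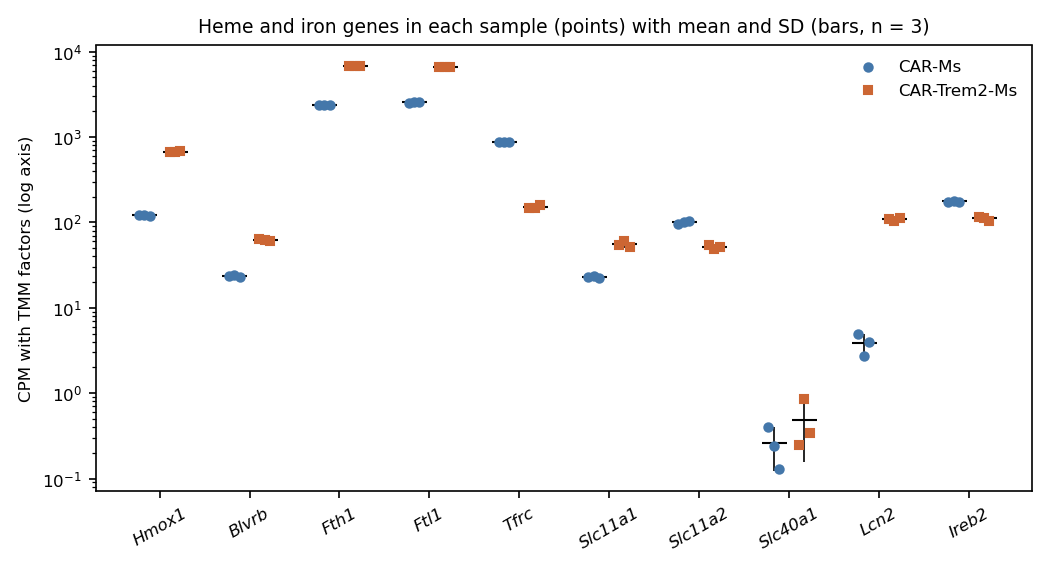
CPM (TMM scaled, log axis) of each of the 10 genes, with 1 point per sample (circles for CAR-Ms, squares for CAR-Trem2-Ms) and the mean and SD of each group as black bars. Apart from Slc40a1, whose 2 to 8 reads per sample overlap between groups, each gene shows 2 separate sets of 3 points, widest apart for Lcn2. These sets are tight except that of Lcn2 in the CAR-Ms, which runs from 2.71 to 4.92 CPM.

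Hmox1 encodes heme oxygenase 1, the inducible enzyme that opens the heme ring (chr8:75093621-75100589, plus strand). Its level was 123, 121 and 119 CPM in the CAR-Ms and 674, 664 and 684 CPM in the CAR-Trem2-Ms. The 3 CAR-Trem2-Ms samples were all high and lay far above the narrow CAR-Ms range. The means of 121 ± 1.95 and 674 ± 9.97 CPM (SD, n = 3 each) give a 5.57-fold higher level, a log2 fold change of 2.48 ± 0.03 (SE; edgeR adjusted p = 1.8e-31).

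Blvrb encodes biliverdin reductase B, which reduces products of heme breakdown and also flavins (chr7:27447978-27466144, plus strand). CAR-Ms held 23.8, 24.0 and 23.2 CPM, and CAR-Trem2-Ms held 64.6, 62.6 and 60.2 CPM. No value of one group reached the other. The level was 2.64-fold higher, with a log2 fold change of 1.40 ± 0.076 (SE, n = 3 each; edgeR adjusted p = 6e-16).

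The rise of Hmox1 exceeded that of Blvrb. Where a pair of values is given below without a group, the CAR-Ms come first. Within each library the ratio of Hmox1 to Blvrb reads was 5.17, 5.04 and 5.14 in the CAR-Ms and 10.4, 10.6 and 11.4 in the CAR-Trem2-Ms, a log2 difference of 1.08 that library scaling factors do not change, and 0.91 from TPM. The exact two-sided permutation test gave p = 0.1, the smallest that 3 samples against 3 allow (0.1 after adjustment over the 4 ratios tested in all). The other genes of heme breakdown did not move as these 2 did. Blvra, the main biliverdin reductase, was lower (44.8 ± 1.56 CPM in the CAR-Ms and 20.7 ± 3.35 in the CAR-Trem2-Ms; log2 fold change -1.11 ± 0.10, edgeR adjusted p = 3.2e-11). Hmox2, the constitutive heme oxygenase, was higher by counts (log2 fold change 0.57, edgeR adjusted p = 7.6e-07), but stood at -0.10 on the log2(TPM + 1) scale (limma adjusted p = 0.32), so its direction depended on scaling.

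Fth1 encodes the ferritin heavy chain, which oxidises ferrous iron for storage (chr19:9980598-9985098, plus strand). Its values were 2354, 2379.5 and 2388 CPM in the CAR-Ms and 6798, 6829 and 6829 CPM in the CAR-Trem2-Ms. All CAR-Trem2-Ms samples were high, and the gap between the groups was much wider than the spread within either. The log2 fold change was 1.52 ± 0.014 (SE, n = 3 each; edgeR adjusted p = 7.8e-34), a 2.87-fold higher level.

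Ftl1 encodes the ferritin light chain, which supports mineral formation inside the shell (chr7:45457944-45459884, minus strand). It stood at 2536, 2566 and 2542 CPM in the CAR-Ms and at 6569, 6607 and 6658 CPM in the CAR-Trem2-Ms, a log2 fold change of 1.38 ± 0.014 (SE, n = 3 each; edgeR adjusted p = 9.9e-33). Its near copy Ftl1-ps1 held 1.32 ± 0.213 CPM in the CAR-Ms and 3.44 ± 0.707 CPM in the CAR-Trem2-Ms. The handling of reads that match both copies was not described in the sources used here, and a small exchange between them cannot be measured. Together the 2 chains took 0.51 to 0.52% of all reads in the CAR-Ms and 1.27 to 1.29% in the CAR-Trem2-Ms. Fth1 moved from rank 18 or 19 among all genes by reads to rank 8 or 9, and Ftl1 from rank 16 or 17 to rank 10.

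The balance of the chains shifted slightly. The ratio of Fth1 to Ftl1 reads was 0.928, 0.927 and 0.939 in the CAR-Ms and 1.03 in each of the 3 CAR-Trem2-Ms libraries, a log2 difference of 0.15 (exact two-sided permutation p = 0.1, the smallest possible). These are ratios of reads and not of levels per length: on the TPM scale Fth1 was above Ftl1 in every library of both groups, and the log2 difference between groups was 0.10. The genes that deliver iron to ferritin or return it went in different directions. Pcbp1, an iron chaperone for ferritin, was higher (136 ± 5.95 and 371 ± 15.7 CPM; log2 fold change 1.44 ± 0.038, edgeR adjusted p = 1.4e-23), and Ncoa4, the receptor that takes ferritin to the lysosome, was lower (134 ± 5.61 and 78.9 ± 4.78 CPM; -0.77 ± 0.052, edgeR adjusted p = 8e-14).

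Tfrc encodes transferrin receptor 1, the main route for transferrin-bound iron (chr16:32608920-32632794, plus strand; its 3′ UTR holds the 4 elements printed above). Its values were 866, 879.5 and 868 CPM in the CAR-Ms and 148, 149 and 161 CPM in the CAR-Trem2-Ms. It was the member with the largest fall, 5.70-fold lower, from 872 ± 6.98 to 153 ± 7.52 CPM (SD, n = 3 each). The log2 fold change was -2.51 ± 0.031 (SE; edgeR adjusted p = 2.6e-31).

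Slc11a1 and Slc11a2 encode related proton-coupled metal transporters, the first of phagosomes and the second, also called DMT1, of endosomes and the cell surface. Slc11a1 (chr1:74375195-74386062, plus strand) stood at 22.7, 23.7 and 22.4 CPM in the CAR-Ms and at 53.9, 60.8 and 51.0 CPM in the CAR-Trem2-Ms. It was 2.40-fold higher, with a log2 fold change of 1.26 ± 0.085 (SE, n = 3 each; edgeR adjusted p = 6.9e-14). Slc11a2 (chr15:100387898-100425072, minus strand) went the other way, with 96.0, 102 and 105 CPM in the CAR-Ms and 54.3, 48.8 and 52.2 CPM in the CAR-Trem2-Ms. It was 1.95-fold lower, a log2 fold change of -0.96 ± 0.059 (SE, n = 3 each; edgeR adjusted p = 1e-14). Per read, Slc11a1 stood at 0.236, 0.232 and 0.214 of Slc11a2 in the CAR-Ms and at 0.994, 1.25 and 0.977 in the CAR-Trem2-Ms, a log2 difference of 2.23 (exact two-sided permutation p = 0.1, the smallest possible).

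Of the other 10 uptake genes 6 were tested, 4 were lower (66.7%, beside 40.1% of all tested genes), 1 was higher and 1 did not pass. With the GC and length offset 2 of the 4, Slc39a8 (edgeR adjusted p = 0.077) and Cybrd1 (0.12), named after their values were seen, did not pass, and on TPM 3 genes were tested, with 1 higher and 2 lower. Steap3, the ferrireductase of the transferrin cycle, was lower (15.7 ± 1.14 and 8.39 ± 1.57 CPM; log2 fold change -0.89 ± 0.15, edgeR adjusted p = 6.1e-06). Mcoln1, a lysosomal cation channel that lets iron into the cytosol, was the one that was higher (25.9 ± 0.743 and 72.6 ± 2.44 CPM; 1.48 ± 0.072, edgeR adjusted p = 3.8e-17).

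Slc40a1 encodes ferroportin, the iron exporter (chr1:45908068-45926523, minus strand). It was close to the detection limit, with 6, 4 and 2 reads in the CAR-Ms and 3, 8 and 4 reads in the CAR-Trem2-Ms, and had too few reads to enter the test. The groups overlapped. Summed over each group it had 12 reads among the CAR-Ms and 15 among the CAR-Trem2-Ms, a depth-scaled ratio of 1.61 with an exact 95% interval of 0.705 to 3.78 that covers counting error only. No difference was detectable at this depth. Its ratio to Tfrc differed by 3.35 on the log2 scale (exact two-sided permutation p = 0.1, the smallest possible), a value that rests on these few reads and on the fall of Tfrc. Of the 4 other export genes, ceruloplasmin (Cp), the ferroxidase that works with ferroportin, was the one tested, at 6.96 ± 1.48 CPM in the CAR-Ms and 28.7 ± 1.80 CPM in the CAR-Trem2-Ms (log2 fold change 2.04 ± 0.14, edgeR adjusted p = 1.3e-13).

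Lcn2 encodes lipocalin 2, which binds bacterial siderophores and so withholds iron from microbes (chr2:32384633-32388252, minus strand). It showed the largest rise of the 10, from 4.92, 2.71 and 4.02 CPM in the CAR-Ms to 111, 105 and 112 CPM in the CAR-Trem2-Ms. In reads that is 73, 45 and 61 against 1329, 988 and 1310. The level was 28.4-fold higher, a log2 fold change of 4.83 ± 0.11 (SE, n = 3 each; edgeR adjusted p = 3.3e-25). Lcn2 is also a granule gene of neutrophils. The other 10 neutrophil markers summed to 19.6 to 35.9 CPM in the CAR-Ms and 3.50 to 7.65 CPM in the CAR-Trem2-Ms. Of 6 tested, 5 were lower (beside 40.1% of all tested genes), 0 higher and 1, Cxcr2, did not pass. Elane and Ly6g had at most 3 reads in any sample, and none of the 10 was at 0 throughout. Whether neutrophils were a source of the Lcn2 reads was not tested. Ltf, lactoferrin of the same granules, was among the lower genes (4.72 ± 2.32 and 0.60 ± 0.319 CPM; log2 fold change -3.01 ± 0.43, edgeR adjusted p = 4.2e-07). Slc22a17, a receptor for Lcn2, was higher (2.25 ± 0.438 and 8.04 ± 2.53 CPM; 1.83 ± 0.28, edgeR adjusted p = 7.8e-07).

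Ireb2 encodes iron-regulatory protein 2, one of the pair of proteins that bind the elements printed above (chr9:54863789-54912530, plus strand). It stood at 174, 179 and 174 CPM in the CAR-Ms and at 117, 113 and 105 CPM in the CAR-Trem2-Ms, 1.58-fold lower. The log2 fold change was -0.66 ± 0.044 (SE, n = 3 each; edgeR adjusted p = 6.1e-14), the smallest of the 9. IRP2 is controlled largely by degradation of the protein, which these data do not measure. Among the other sensing genes 4 of 8 were tested, with 1 higher, 2 lower and 1 not passing. Hfe, a partner of the transferrin receptor, was higher (8.38 ± 0.555 and 21.9 ± 1.3 CPM; 1.38 ± 0.13, edgeR adjusted p = 1.5e-10), and Hif1a, the oxygen-regulated factor, was lower (199.9 ± 0.688 and 128.8 ± 3.38 CPM; -0.64 ± 0.038, edgeR adjusted p = 6e-15).

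The wider list holds 67 further genes of iron and heme metabolism, of which 51 were tested. Of these 21 (41.2%) were higher, 23 (45.1%) were lower and 7 did not pass, with a median log2 fold change of -0.12. These shares are close to the 40.9% and 40.1% of all tested genes. At 2-fold or more, 11 were higher and 10 were lower. The direction of 15 of the 51 differed between scalings.

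Of the 6 tested transcription factors of these genes, 2 were higher, 3 were lower and 1 did not pass. Mafg, a small Maf, was higher (164.9 ± 5.08 and 281.9 ± 11.9 CPM, log2 fold change 0.77 ± 0.037, edgeR adjusted p = 2.9e-17). Keap1 was the other higher gene (log2 fold change 0.88 ± 0.059, edgeR adjusted p = 5.7e-14). Bach1, the heme-sensing repressor of Hmox1 and the ferritin genes, was 3.93-fold lower (99.1 ± 8.16 and 25.0 ± 3.97 CPM; log2 fold change -1.98 ± 0.084, edgeR adjusted p = 1.5e-18). Mafk, a small Maf partner of Bach1 and of Nfe2l2, was lower as well (210.6 ± 2.37 and 56.8 ± 3.44 CPM; -1.90 ± 0.047, edgeR adjusted p = 4.1e-24). Nfe2l2, the activator known as NRF2 that works at the same sites as Bach1, stood at 164.5 ± 3.27 and 165.7 ± 4.77 CPM (log2 fold change 0.0088, edgeR adjusted p = 0.84). Its direction depended on scaling: it was higher by 0.24 with upper quartile factors (edgeR adjusted p = 2.4e-06) and stood at -0.67 on log2(TPM + 1) (limma adjusted p = 2.5e-06).

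Genes of heme transport and of the mitochondrial steps were mixed. Slc48a1, which brings heme out of the lysosome, was higher (63.2 ± 1.28 and 169.8 ± 4.36 CPM; log2 fold change 1.43 ± 0.046, edgeR adjusted p = 2.3e-21), and Flvcr1, described as a heme exporter, was lower (77.9 ± 0.892 and 31.8 ± 3.69 CPM; -1.3 ± 0.074, edgeR adjusted p = 1.5e-15). Transport genes as a whole counted 2 higher, 3 lower and 2 not passing of 7 tested. The counts of this paragraph stand beside 40.9% higher and 40.1% lower of all tested genes, and beside 17.5% and 64.2% on TPM. Heme synthesis counted 4 higher and 4 lower of 8 tested, but 2 higher and 5 lower on TPM, with Uros (log2 fold change 1.40, edgeR adjusted p = 2.5e-09) and Ppox (1.73, edgeR adjusted p = 1.2e-10) the largest by the naming rule. Among the 11 genes of mitochondrial iron and iron-sulfur clusters, 6 were higher, 3 lower and 2 did not pass, whereas on TPM 2 were higher and 7 lower. Slc25a37, the mitochondrial iron importer mitoferrin 1, was 5.20-fold higher (37.8 ± 1.56 and 196.9 ± 9.06 CPM; log2 fold change 2.38 ± 0.052, edgeR adjusted p = 2e-25). Isca2, of iron-sulfur cluster assembly, rose from 5.67 ± 1.37 to 21.2 ± 1.49 CPM (1.90 ± 0.16, edgeR adjusted p = 1.1e-11). Slc25a37 is also high in red cell precursors. Summed erythroid markers lay between 4.41 and 15 CPM in the CAR-Ms and between 2.34 and 3.61 CPM in the CAR-Trem2-Ms. Of the 9 markers found, 3 were tested, all of them globin genes. All 3 were lower (beside 40.1% of all tested genes), though the groups overlapped for Hba-a1. Klf1, not tested, stood at 0.62 ± 0.205 and 0.87 ± 0.209 CPM, and Alas2 had at most 3 reads in any sample. Whether red cell precursors were a source of the Slc25a37 reads was not tested.

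**Figure D2:**
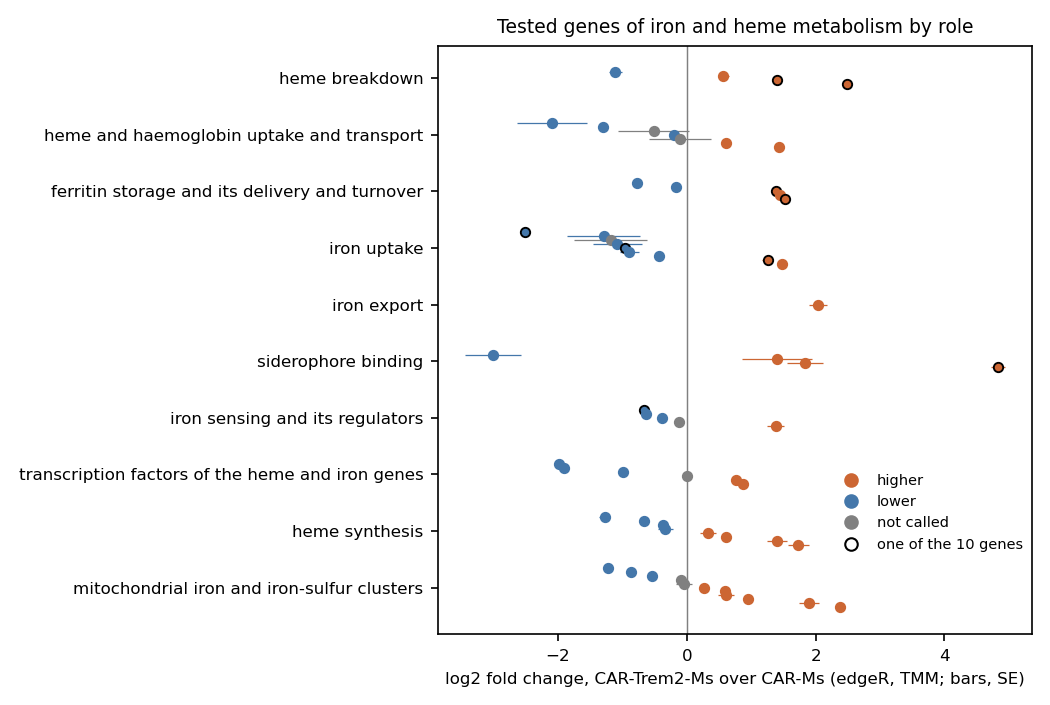
Log2 fold change (edgeR, CAR-Trem2-Ms over CAR-Ms; bars show the SE) of each tested gene of the wider list, in rows by role, with the 10 genes of the report ringed where tested. Most rows hold points on both sides of 0, and Lcn2 at 4.83 and Ltf at -3.01 mark the ends.

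Levels of different genes can be compared only per length, on the deposited TPM scale. In the CAR-Ms the order by mean TPM was Fth1 (6821 ± 176), Ftl1 (5984 ± 72.1), Tfrc (294 ± 2.61), Hmox1 (146 ± 1.52), Slc11a2 (58.7 ± 8.27), Ireb2 (56.0 ± 1.28), Blvrb (52.0 ± 1.73), Slc11a1 (17.4 ± 0.397), Lcn2 (9.95 ± 2.79) and Slc40a1 (0.13; SD, n = 3 for each). Slc11a2 overlapped Ireb2 and also Blvrb, and the other neighbours did not overlap. In the CAR-Trem2-Ms the order was Fth1 (11564 ± 101), Ftl1 (9484 ± 138), Hmox1 (502 ± 8.25), Lcn2 (171 ± 5.49), Blvrb (94.9 ± 2.68), Tfrc (32.4 ± 1.67), Slc11a1 (25.8 ± 2.4), Ireb2 (22.3 ± 3.87), Slc11a2 (21.3 ± 5.78) and Slc40a1 (0.15). There Slc11a1, Ireb2 and Slc11a2 overlapped. Tfrc thus went from the third place to the sixth, and Lcn2 from the ninth to the fourth. The ferritin chains together held 1.25 to 1.3% of all TPM in the CAR-Ms and 2.08 to 2.12% in the CAR-Trem2-Ms.

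The size of each change depended on the scale. On log2(TPM + 1), where the median of all tested genes was -0.63 and limma called 17.5% higher and 64.2% lower of 10824 genes, the same 6 members were higher and the same 3 lower. The log2 changes there were 4.0 for Lcn2, 1.77 for Hmox1, 0.86 for Blvrb, 0.76 for Fth1, 0.66 for Ftl1, 0.54 for Slc11a1, -1.31 for Ireb2, -1.44 for Slc11a2 and -3.14 for Tfrc. The ferritin rise was therefore smaller on this scale, and the fall of Ireb2 larger. For the 67 further genes the split moved to 12 higher and 29 lower of 47 tested, so the even split by counts holds for that scale only.

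**Figure D3:**
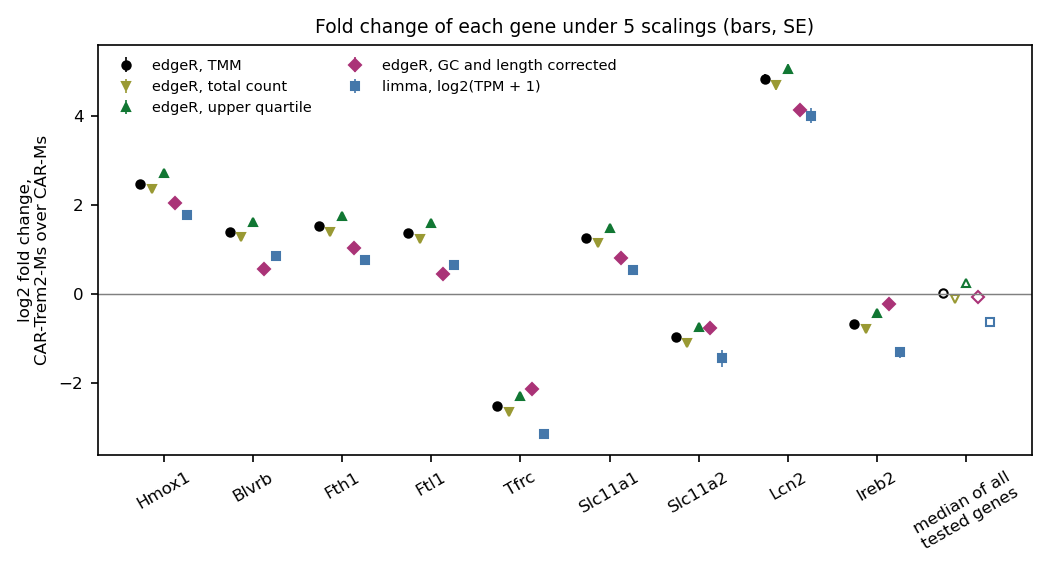
Log2 fold change (CAR-Trem2-Ms over CAR-Ms) of the 9 tested members under 5 scalings, with 1 filled symbol for each (bars show the SE) and open symbols for the median of all tested genes. Every symbol of a gene lies on 1 side of 0, while the distance from 0 differs between scalings, as for Ireb2 between -1.31 and -0.23.

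Transcript length moved with the direction of change, in these genes and in the table as a whole. The longest coding transcripts of the 6 higher members measured 0.92 to 2.32 kb, and those of the 3 lower members 4.42 to 5.77 kb. When all tested genes were divided by length into 5 bins of equal size, the median log2 fold change was 0.46 in the shortest bin, which holds Hmox1, Blvrb, Fth1, Ftl1 and Lcn2, then 0.25 with Slc11a1, 0.04, -0.18 with Tfrc and Slc11a2, and -0.49 in the longest with Ireb2. With GC content and length entered as an offset, an alternative chosen after seeing the data, the log2 changes were 4.13 for Lcn2, 2.04 for Hmox1, 1.05 for Fth1, 0.81 for Slc11a1, 0.57 for Blvrb, 0.46 for Ftl1, -0.23 for Ireb2 (edgeR adjusted p = 2.1e-05), -0.76 for Slc11a2 and -2.13 for Tfrc. All 9 kept their direction. The part of length in the changes was not tested beyond this offset.

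**Figure D4:**
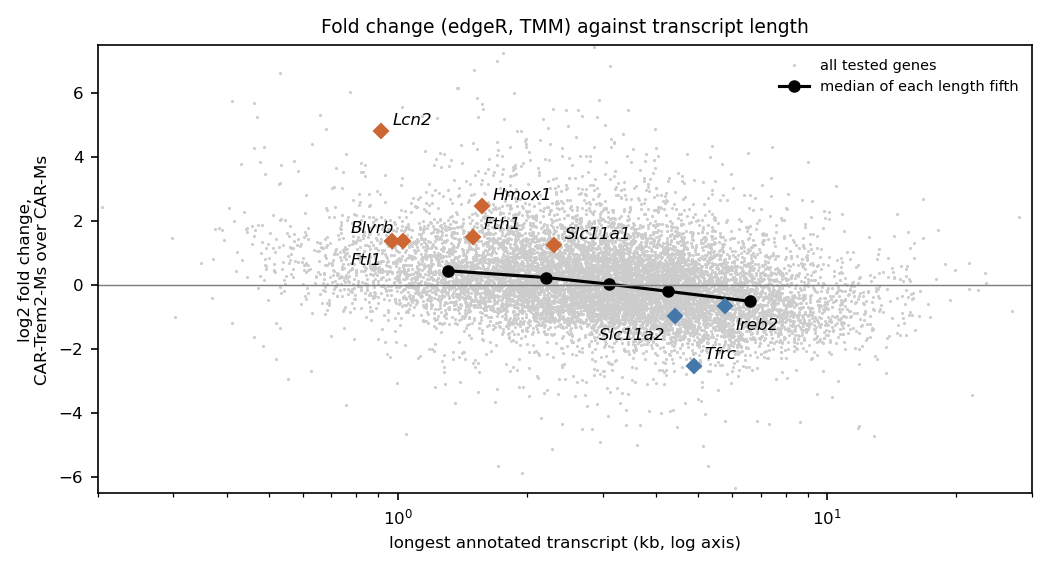
Log2 fold change (edgeR, CAR-Trem2-Ms over CAR-Ms) against the length of the longest coding transcript (kb, log axis) for the tested genes within the axes, with the 9 tested members named and the median of each of 5 length bins as a line. The medians step down from 0.46 in the shortest bin to -0.49 in the longest, and the higher members sit at the left and the lower ones at the right.

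The genes most like the extreme members were found by the distance between log2 CPM values over the 6 samples, each centred on its own mean, among 9729 genes. Nearest to Lcn2 were Oas2 at a distance of 0.46 (6.16 and 180.7 mean CPM in the CAR-Ms and CAR-Trem2-Ms), H3c15 at 0.47 (0.33 and 16) and Oas1g at 0.47 (5.25 and 119.5). Nearest to Tfrc were Erbin at 0.051 (470.9 and 82.6), Pola1 at 0.16 (108.4 and 19.8) and Tmem26 at 0.20 (27.8 and 5.29). With 2 groups of 3, likeness by this measure is mostly likeness in fold change. The log2 CPM values here include a small added count, which shrinks the change of genes with few reads. By edgeR the log2 fold change of H3c15 was 5.59, beside 4.83 for Lcn2.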

How the data were processed

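Trizol served for RNA extraction and a SMARTER mRNA-Seq kit for the libraries, per the labels' protocols. The submitters' processing notes name StringTie 1.3.1, HISAT2 without a version, Bowtie2 2.2.8, fastp 0.18.0 and the mm10 build. The counting tool, strand setting and annotation were not given in the sources used here. The authors deposited raw read counts per gene and, per the file headers, TPM values scaled for length within each library. Differences in counts were tested in R 4.3.3 by edgeR 4.0.16 (TMM factors, filterByExpr, quasi-likelihood test, Benjamini-Hochberg over all 11402 tested genes, threshold 0.05). Rows without a symbol, 30 genes with 0.0016% of reads, were not removed before the test and passed through the same filter as all other rows. TPM was tested with limma 3.58.1 on log2(TPM + 1), a scale that understates the change of low genes. DESeq2 1.42.0 and other alternatives are given in the closing section. The fit was tested on simulated data in which few genes changed, so that check does not cover a change as wide as the one here. Intervals cover counting error only. No replicates agreed within sampling noise (chi-square per degree of freedom 2.19 to 3.34).

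All 10 members were named, and from each group of the wider list up to 2 called genes with the largest absolute change and, in the group with more, a mean of 50 reads or above. Nfe2l2, Mafg and Keap1 were added after their values were seen. For the extreme members, the 3 most alike genes were taken. The members and lists were chosen with earlier results of these data known. Transcript lengths and UTRs come from GENCODE M21. RefSeq promoter entries matched 7 of the 10 members and are not shown, since no measurement here bears on promoters.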

Additional observations from a re-analysis of the deposited data

How the results depend on the processing

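Each of the 9 tested members kept its direction and its side of the threshold under all 18 alternatives. Leaving out 1 library at a time gave log2 changes of 4.60 to 5.02 for Lcn2 and of -0.70 to -0.61 for Ireb2, the smallest change, and the other alternatives gave 4.0 to 5.06 and -1.34 to -0.23. The largest adjusted p of any alternative was 3.8e-04, for Slc11a1 on log2(TPM + 0.1). DESeq2 called the same numbers of members, 6 higher and 3 lower, and 4457 higher and 4513 lower of all genes. At 2-fold or more 1 member was lower, the wider list with the members counted 17 higher and 11 lower against 27 and 26, and all genes counted 2136 higher and 1629 lower against 4668 and 4577. With limma, all genes counted 1890 higher and 6946 lower on log2(TPM + 1), and 1881 and 6927 on log2(TPM + 0.1). Upper quartile factors moved the median of all tested genes to 0.26, total counts to -0.10. From TPM, the log2 difference between groups was 0.10 for Fth1 to Ftl1, 2.05 for Slc11a1 to Slc11a2 and 0.91 for Hmox1 to Blvrb; the cause was not tested. Same-numbered samples of the 2 groups showed no sign of pairing (correlations of their deviations 0.028, -0.027 and 0.032). Samples with different numbers gave -0.059 to 0.029. Low correlations do not show that the samples were unpaired. A replicate block called 6 members higher and 3 lower, as without it, and 4627 and 4561 of all genes. Depth left Slc40a1 untested.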

Other observations

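Aside from the members, 20 genes held the hairpin pattern in a 5′ UTR and 14 of them were tested, with 4 higher, 8 lower and a median log2 fold change of -0.32. Ftl1-ps1, the near copy of Ftl1, was among the 4 higher. These genes were looked at after the main results were seen. Matches in a 3′ UTR were present in 98 further genes, of which 66 were tested, with 19 higher, 36 lower and a median of -0.32. Over all tested genes 40.9% were higher and 40.1% lower. RNA direction varied among carriers of the pattern in a 5′ UTR, where the element acts on translation, which was not measured.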
